A study of Mus musculus with 6 samples.

Results

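The genes described here encode the proteins of the cytosolic ribosome. The rule that picks them uses symbol and biotype and no measured value, as it takes protein-coding genes whose mouse symbol begins with Rpl or Rps and a number, together with Rplp0, Rplp1, Rplp2 and Rpsa. Pseudogene symbols were left out, including 3 that are annotated as protein-coding, among them Rpl10-ps3 and Rps12-ps3. The Rps6k kinases and Rps19bp1, which is not a ribosomal protein, were left out too. This gave 83 genes of 21255 in the table, of which 46 encode large subunit proteins, 31 encode small subunit proteins and 6 are paralogs of another member (Rpl7l1, Rpl22l1, Rpl36al, Rpl39l, Rps27l and Rps27rt).

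The study cultured small intestinal crypts of mice as 3D organoids and compared control with C/EBPα KO organoids by sequencing polyadenylated RNA, with 3 libraries per genotype. The control organoids carry C/EBPα Flox/Flox alleles without the VillinCreERT2 transgene and are labelled wildtype. The C/EBPα KO organoids carry the same floxed alleles with VillinCreERT2, a Cre recombinase that the Villin promoter expresses in epithelial cells and that 4-OHT activates. The labels give every library the same 4-OHT treatment, 400 nM for 2 days. The labels and methods used here give no age, sex, strain or animal for a library, so the spread between libraries may be technical in part. By name, values could be matched to 3 libraries of the control group (S1, S2 and S3) and to none of the C/EBPα KO group, which is not analysed here. Where 3 values of a gene follow each other, they are those of S1, S2 and S3 in this order. What follows therefore describes ribosomal protein mRNAs in control organoids, and no difference between genotypes was computed.

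Each cytosolic ribosome holds a large and a small subunit, and nearly every ribosomal protein is present in a single copy per ribosome, so that their mRNAs are needed in similar amounts. Many of these mRNAs start with a C followed by a run of pyrimidines, the terminal oligopyrimidine (TOP) motif, through which mTORC1 and Larp1 control their translation. In the intestinal epithelium, growth and ribosome production are known to be high in the proliferating cells of the crypt. Ribosomal protein genes have also left many processed pseudogenes in mammalian genomes, inserted copies of the spliced mRNA whose sequence can remain close to that of the parent gene.

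The 3 control libraries held 30405545 to 36819530 reads on genes. The epithelial markers fixed for enterocytes were present in all 3 libraries (11 of 11 with a mean normalized count of 10 or more, the minimum above which a gene counts as expressed here), while 1 of 6 mesenchymal, 1 of 6 immune and 1 of 3 endothelial markers reached that minimum. Only 5 of these mesenchymal, 4 of the immune and 1 of the endothelial markers had a value, so the others could not reach it. Library S1 stood apart by sex-linked transcripts, with Xist at 18.9, 15423 and 14769 normalized counts. The Y-linked Ddx3y had 1256, 67.3 and 2.30 and Eif2s3y 1999, 105 and 11.5, so that S2 and S3 were not alike either. Of the 83 ribosomal protein genes, 82 reached the minimum, as did 13803 genes in all, the expressed genes. Rpl39l did not.

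The ribosomal protein genes held 4.83%, 4.90% and 4.61% of the normalized counts of the libraries (mean 4.78 ± 0.152%, SD, n = 3). Library S3 was the lowest. Large subunit genes accounted for 2.73 ± 0.0785%, small subunit genes for 2.01 ± 0.0705% and the paralogs for 0.0444 ± 0.00311%. Of the 77 genes of both subunits, 74 lay above 90% of the expressed genes, and 11 belonged to the 100 highest genes by normalized counts. The median percentile of the 77 genes was 98.3.

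To compare levels between genes, normalized counts were divided by the coding length of the gene in kilobases. On this scale the median of the 77 genes was 40810 normalized counts per coding kilobase. The 78 mitochondrial ribosomal protein genes, which serve the separate ribosomes of mitochondria, had a median of 2100 per coding kilobase. Between cytosolic genes, the 90th percentile was 2.86 times the 10th per coding kilobase, and 5.32 times without division by length. The large and small subunits were at similar levels, with a ratio of their medians per coding kilobase of 0.974 ± 0.0263 (SD, n = 3).

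**Figure D1:**
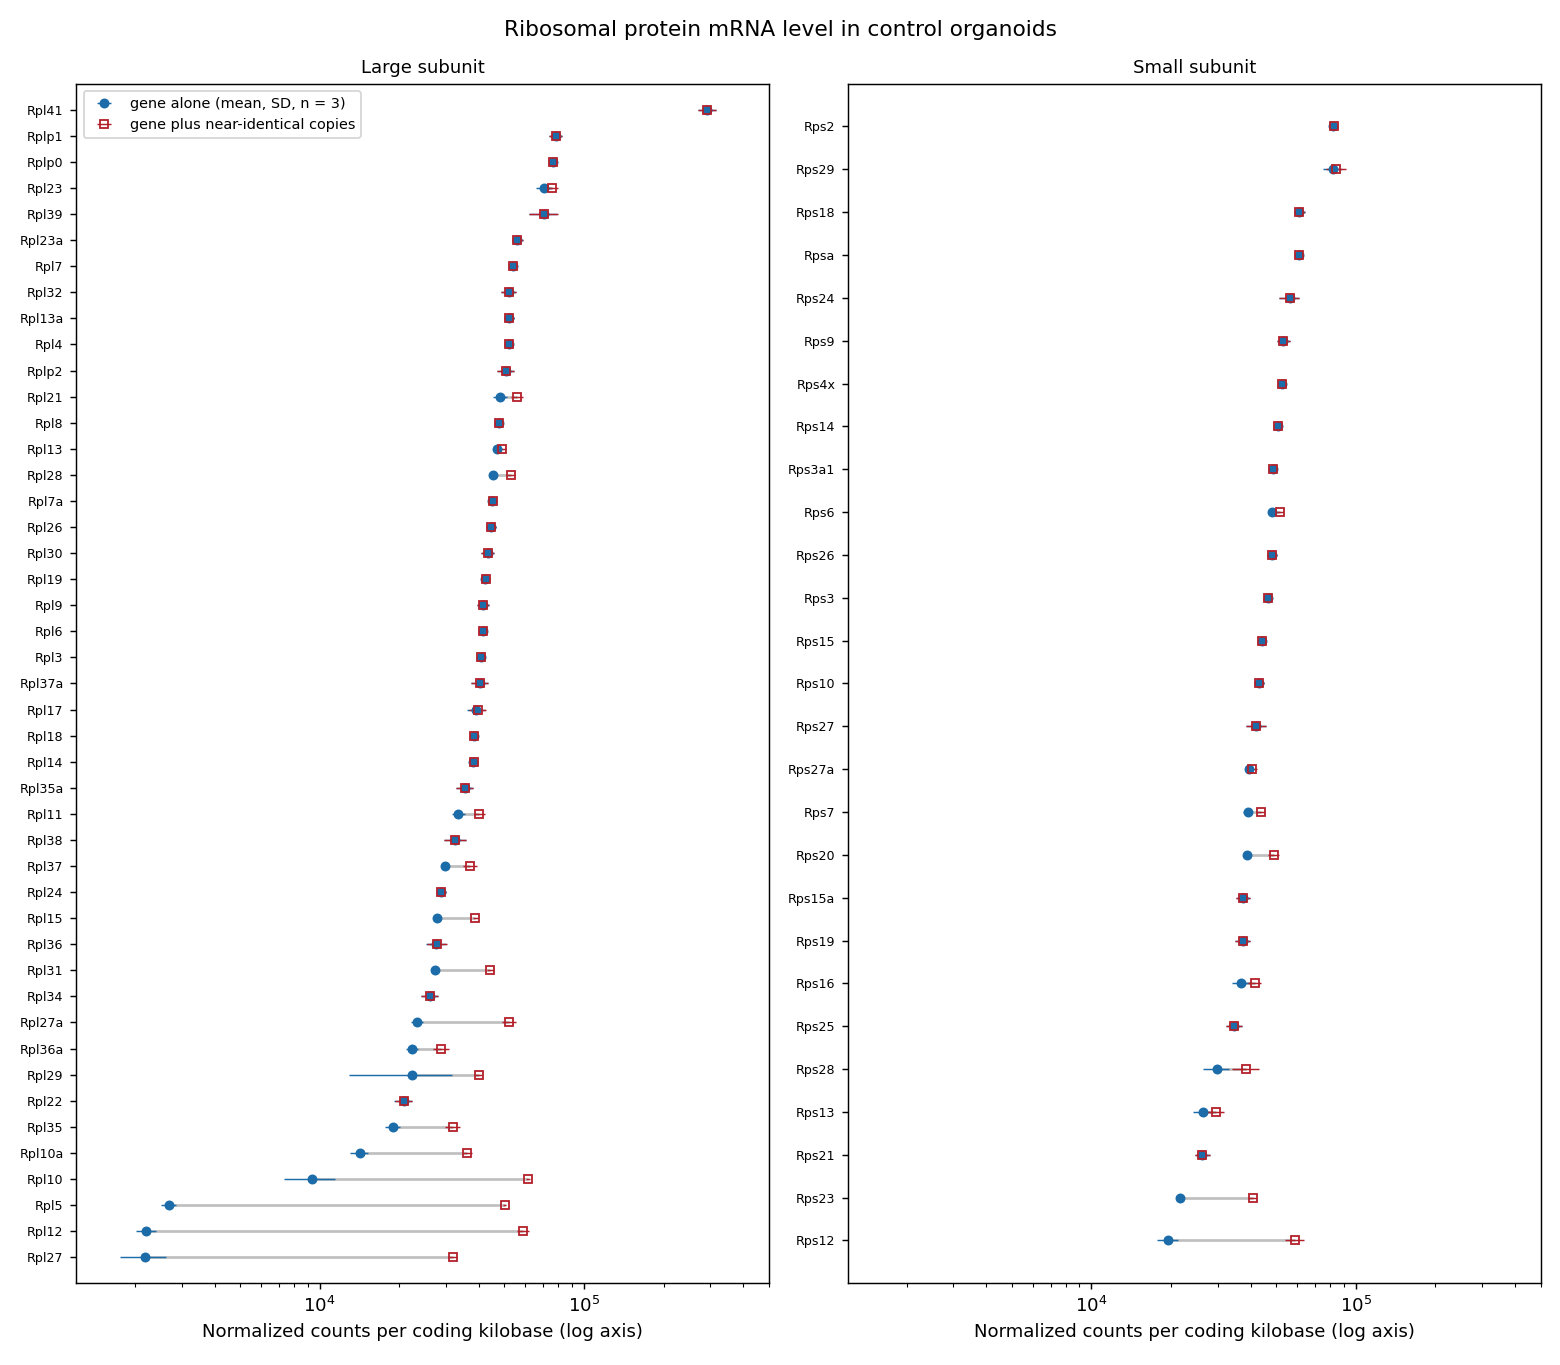
Normalized counts per coding kilobase (log axis) of large and small subunit genes, ordered by level, with some genes not drawn. Filled points are the gene alone and open squares the gene with its near-identical copies, as mean and SD of the 3 control libraries. Most genes lie close to the median of 40810, Rpl41 lies far above it, and the lowest genes of the large subunit move up to the others when their copies are added.

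In the large subunit, Rpl41, which encodes a very short peptide, was the highest per coding kilobase. Rpl41 (ENSMUSG00000093674, chromosome 10) had 23035, 22825 and 20024 normalized counts, which for its 75 coding bases gave 292818 ± 22415 per coding kilobase. This rank rests on the length correction, because Rpl41 was 30th of 77 by normalized counts alone. Next came Rplp1 at 78137 ± 4206 and Rplp0 at 76315 ± 898 per coding kilobase, which did not differ beyond their spread, then Rpl23 at 70804 ± 5091 and Rpl39 at 70513 ± 8552. Rpl39 lines the exit tunnel of the nascent peptide and is X-linked.

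Rplp0, Rplp1 and Rplp2 form the stalk that recruits translation factors, in which a Rplp0 molecule carries Rplp1 and Rplp2 as dimers. Rplp0 (ENSMUSG00000067274, chromosome 5) had 72266, 73541 and 71919 normalized counts, the highest mean of the members, which did not differ from that of Rps2 beyond their spread. Rplp1 had 27233, 27837 and 25099, and Rplp2 had 17707, 18650 and 16134. Rplp0 was nearly level over the libraries, while Rplp1 and Rplp2 were lowest in S3. Per coding kilobase, Rplp1 was at 1.02 ± 0.0461 times the level of Rplp0 and Rplp2 at 0.664 ± 0.0415 times (SD, n = 3). The ratio of Rplp1 to Rplp2 was 1.54 ± 0.0328 and lay between 1.51 and 1.57 in the 3 libraries.

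In the small subunit, Rps2 and Rps29 were the highest, at 82242 ± 1429 and 81924 ± 6547 normalized counts per coding kilobase, and did not differ beyond their spread. This rests on the length correction too, since Rps29 has 168 coding bases. Rps2 had 73223, 72787 and 70862 normalized counts, and Rps29 had 14151, 14616 and 12522. Rps18 followed at 61117 ± 2909, Rpsa at 60812 ± 1868 and Rps24 at 56154 ± 4814 per coding kilobase. Rpsa encodes a small subunit protein that is also known as a laminin receptor at the cell surface. It had 52732, 55722 and 53003 normalized counts, and the libraries were close to each other. Of the 10 highest genes of both subunits per coding kilobase, 3 were among the 10 highest without length correction and 7 with 200 bases added to each coding length. The lowest small subunit genes per coding kilobase were Rps12 (19467 ± 1735), Rps23 (21661 ± 526), Rps21 (26303 ± 1734), Rps13 (26433 ± 2299) and Rps28 (29746 ± 3278).

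The lowest large subunit genes per coding kilobase were Rpl27 (2192 ± 438), Rpl12 (2210 ± 195), Rpl5 (2684 ± 173), Rpl10 (9392 ± 2064) and Rpl10a (14163 ± 1109). The remaining large subunit genes lay between 18904 (Rpl35) and 55980 (Rpl23a). Each of the 5 lowest has a near-identical copy elsewhere in the genome that the table counts as a gene of its own. Copies were sought by aligning the transcripts of 4641 candidate genes to those of the members (at least 90% identity over at least 80% of the coding length), which found 362. Of these, 28 had a mean normalized count of 1000 or more, and 25 members had copies that together reached this level. In 7 members (Rpl12, Rpl5, Rpl27, Rpl10, Rps12, Rpl10a and Rpl27a) the copies held more than 50% of the normalized counts of gene and copies together.

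Rpl5 and Rpl11 encode the proteins that travel with the small rRNA of the large subunit and, when ribosome assembly is disturbed, bind Mdm2 and so raise p53. Rpl5 (ENSMUSG00000058558, chromosome 5) had 2449, 2217 and 2509 normalized counts. Gm15500, a transcribed processed pseudogene on chromosome 7 whose transcript matched that of Rpl5 at 100% over 1018 bases, had 42179, 43001 and 41412. The reads thus lay mostly on the pseudogene's row in every library. Since the sequences are the same over this stretch, reads within it fit either row, and the level of Rpl5 alone is uncertain. Together, Rpl5 and its copies had 44621 ± 653 normalized counts, or 50079 per coding kilobase, where the median of the 77 genes with copies was 44175. Rpl11 had 17908, 18851 and 16888 normalized counts, a mean of 17882 ± 982, and 16.7% of its sum with copies lay on the copies. Mdm2 had 1586 ± 82.8 normalized counts and Cdkn1a, a p53 target, 10520 ± 430.5.

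Rpl10, an X-linked gene whose protein joins the large subunit late in its assembly, had 5648, 7503 and 4937 normalized counts. Its copy Rpl10-ps3 on chromosome 9, identical over 740 bases, had 34016, 32416 and 33842. Where Rpl10 was highest, in S2, its copy was lowest, and the sum over Rpl10 and its copies was 39674, 39919 and 38779. Rpl27 had 1100, 791 and 792, and its copies, mainly Rpl27-ps3 (8996 ± 263.9) and Gm11518 (3089 ± 744), held 93.1% of a sum of 12960, 13531 and 12459. Relative to their means, these sums varied less than the genes alone. The SD was 1.52% of the mean against 22.0% for Rpl10, and 4.13% against 20.0% for Rpl27. For Rpl12, Gm10275 on chromosome 10 had 28016 ± 1494 normalized counts against 1094 ± 96.6 on Rpl12 itself. Rpl10a, which has been reported to be present in only some ribosomes, had 9890, 8452 and 9191 against 14263 ± 1208 on Rpl10a-ps1. Rpl27a had 10368 ± 513 against 12756 ± 969.5 on Gm7536.

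In the small subunit the largest shares on copies were those of Rps12, at 66.8%, and Rps23, at 46.7%. Rps12 had 7510, 8473 and 7143 normalized counts, and Rps12-ps3 had 16562, 16124 and 13861. Rps23 had 9038, 9468 and 9371, and Rps23-ps1 had 8432, 8648 and 7365. With copies added, Rps12 went from the lowest to the 5th place among small subunit genes, at 58655 per coding kilobase. Over all 77 genes, adding the copies narrowed the ratio of the 90th to the 10th percentile per coding kilobase from 2.86 to 1.92. In the 52 genes whose copies stayed below 1000 normalized counts it was 2.13. With copies added, the lowest gene was Rpl22, at 20815 per coding kilobase, and Rpl41 remained the highest.

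Rpl29 (ENSMUSG00000048758, chromosome 9) varied more between the control libraries than any other subunit gene. It had 13422, 5523 and 13100 normalized counts, a coefficient of variation (CV) of 41.8%. Library S2 was the lowest. The 95% exact Poisson intervals were 13202 to 13645, 5374 to 5676 and 12860 to 13342, which cover counting error only, and neither the error of dividing shared reads between near-identical genes nor the spread between cultures. Its 3 most abundant processed pseudogenes were highest in S2. Gm10709 on chromosome 9 had 1915, 4585 and 2229, and Gm8210 on chromosome 1 and Gm13841 on chromosome 5 each had 2169, 4200 and 1983. The transcripts of Gm8210 and Gm13841 are identical over all their 483 bases, and the table gives them equal values in every library. The sum over Rpl29 and its copies was 19732 in S1, 18595 in S2 and 19337 in S3, with a CV of 3.00%. The sum thus varied little, while its division between Rpl29 and the copies differed in S2, and the source of that difference was not tested.

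The transcripts differ at few bases, which are shown because, within the aligned stretch, only a read that covers such a base can be told apart. Positions are counted from 1 at the start of the Rpl29 transcript in the GENCODE annotation of GRCm38, and the Rpl29 base is given first. Gm10709 differs by G314A, C409T, T532C and G566A, and Gm8210 and Gm13841 by C181A, C409T and T532C. In the windows below, the capital marks the base that differs.

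Rpl29, positions 166 to 195: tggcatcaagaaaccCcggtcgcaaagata
Gm8210 and Gm13841, same positions: tggcatcaagaaaccAcggtcgcaaagata
Rpl29, positions 394 to 423: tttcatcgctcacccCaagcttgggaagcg
Gm10709, Gm8210 and Gm13841, same positions: tttcatcgctcacccTaagcttgggaagcg
Rpl29, positions 517 to 546: ggcttcagctccagcTcaggctcccaaagg
Gm10709, Gm8210 and Gm13841, same positions: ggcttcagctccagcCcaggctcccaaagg

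**Figure D2:**
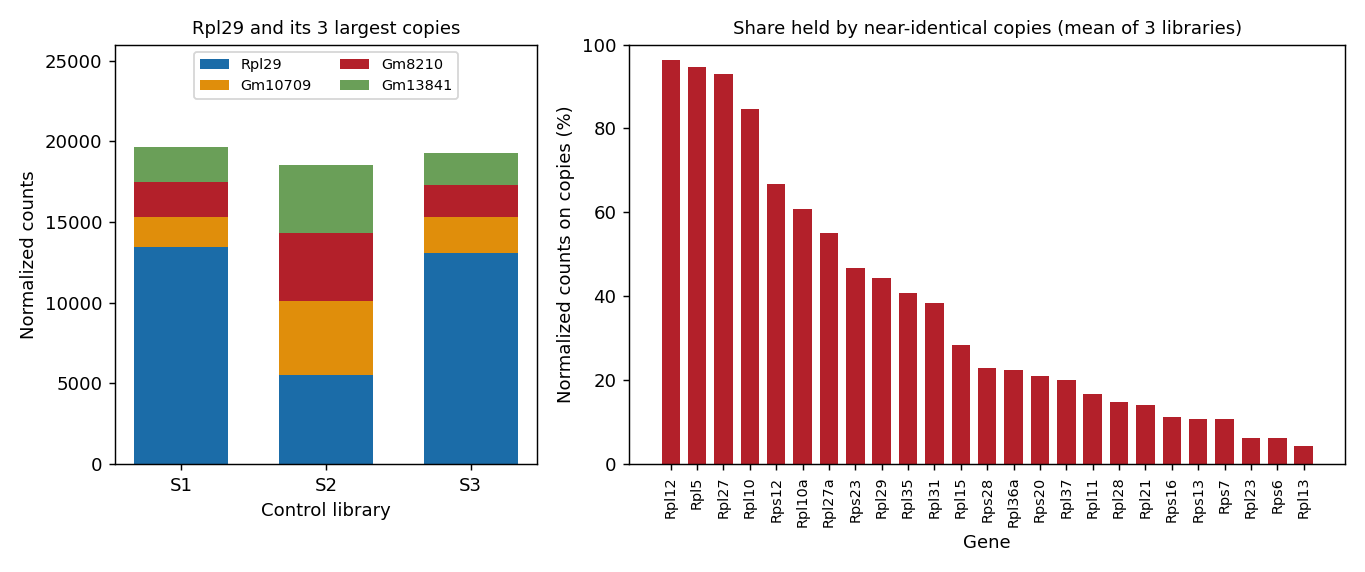
Left, normalized counts of Rpl29 and 3 processed pseudogenes stacked for each control library; in S2 Rpl29 is at 5523 while the stack is about as high as in the other libraries. Right, the share of normalized counts (%, mean of 3 libraries) that lies on near-identical copies for the 25 genes whose copies reach 1000 normalized counts, from 96.2% for Rpl12 downward.

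After Rpl29, the members with the largest CV and a mean normalized count of 100 or more were Rpl10 at 22.0%, Rpl27 at 20.0%, Rpl39 at 12.1% and Rps28 at 11.0%. With copies added, the CV was 1.52% for Rpl10 and 4.13% for Rpl27, but 12.4% for Rpl39 and 11.8% for Rps28. Rpl39 had 10843, 12069 and 9454 normalized counts. Rps28 had 6622, 6471 and 5379. Both genes were lowest in S3 and are among the shortest members. The median CV over the 25 genes whose copies reached 1000 normalized counts was 5.76% for the gene and 4.69% for gene and copies together, lower with copies in 14 of 25. The median CV was 4.95% over the 77 genes of both subunits, 6.62% over all expressed genes and 3.78% over the 3647 other genes with a mean normalized count of 2000 or more.

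The members deviated together between libraries to a small extent. The deviation of a gene in a library was taken as its log2(normalized count + 1) minus the mean of the other 2 libraries. The median deviation of the 82 members was 0.02, 0.08 and -0.10, and that of all expressed genes 0.00, 0.00 and 0.01. Library S3 was the lowest of the 3 for 68 of 82 members (82.9%), and for 31.1% of all expressed genes. Library S2 was the highest for 57 members (69.5%) and for 29.9% of all expressed genes. Large and small subunit genes shared this, with medians of -0.10 and -0.09 in S3. Gene and copies together gave a median of -0.10 in S3, with 68 of 77 lowest there. Without S1, which stood apart by sex-linked transcripts, the median in S3 against S2 was -0.12. Without S2, the median in S3 against S1 was -0.08. The median in S2 was less stable, at 0.12 against S3 alone and 0.03 against S1 alone.

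The size of the deviation in S3 varied with coding length. Members with under 300 coding bases had a median deviation in S3 of -0.19 (11 genes), those from 300 to 450 of -0.14 (29 genes), those from 450 to 600 of -0.09 (19 genes) those from 600 to 900 of -0.04 (20 genes) and those of 900 or more of -0.02 (3 genes). Other genes in these length classes, taken up to 1500 bases, had -0.05, -0.04, -0.02, -0.01 and 0.01. The order was thus the same in other genes and the deviations smaller. Across genes, which are not independent replicates and share their libraries, Spearman's rho between coding length and deviation in S3 was 0.607 over the 82 members and 0.150 over 12277 other genes with a coding length, given as a description. In S1 it was -0.28 and -0.12, and in S2 -0.43 and -0.02. These follow in part from the value in S3, since the 3 deviations of a gene sum to 0. A further comparison, chosen after seeing the data, set all 82 members against other protein-coding genes with under 600 coding bases. Relative to these genes, the median deviation of the members was -0.07 in S3 in place of -0.10, and 0.07 in S2 in place of 0.08. The members were not cut to this length and include those of 600 bases or more, so this comparison is not matched in length.

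**Figure D3:**
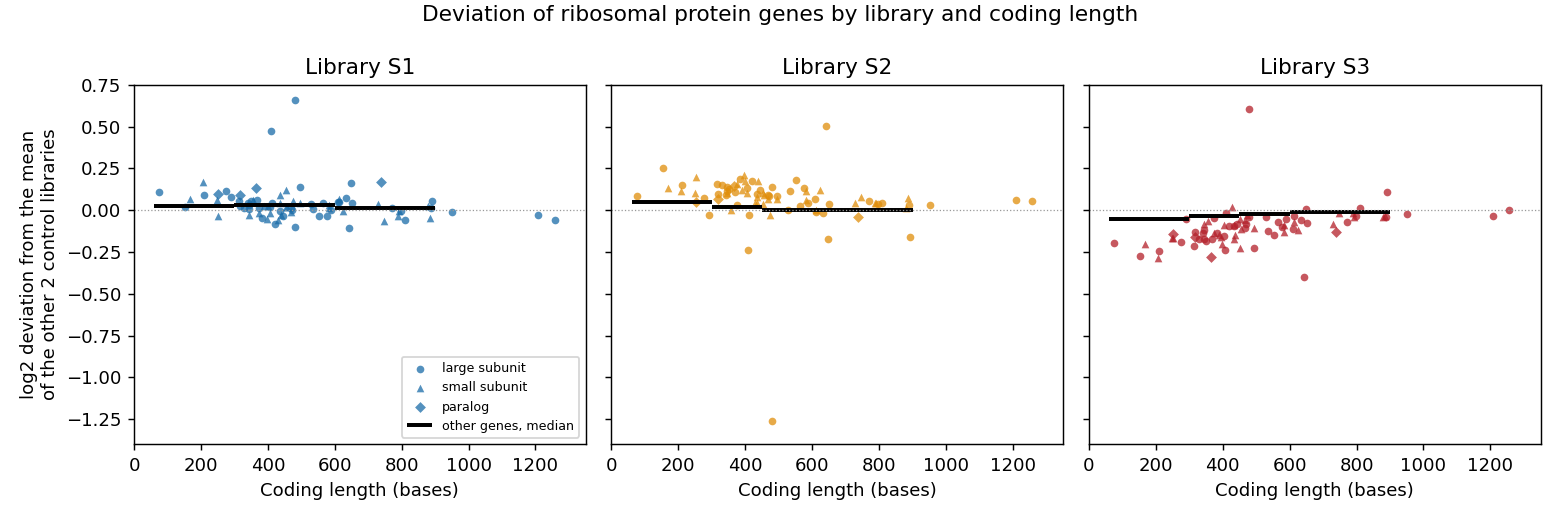
Log2 deviation of each member from the mean of the other 2 control libraries against coding length in bases, in 1 panel per library; black lines are medians of other genes in length classes up to 900 bases. In S3 most members lie below 0, and members with under 300 coding bases have the lowest median of the length classes. Single longer members, such as Rpl10, lie lower still. Rpl29 lies at -1.26 in S2. Rps27rt and Rpl39l are not drawn because of their few reads.

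The libraries also differed in secretory cell markers. All 8 Paneth cell markers were higher in S3 than in the mean of S1 and S2, as were 51.6% of all expressed genes. Their median deviations were -0.22, -0.16 and 0.33, and their summed normalized counts were 120629, 130600 and 148736. The 6 goblet cell markers had median deviations of -0.19, 0.03 and 0.19, and the 7 enteroendocrine markers of -0.05, -0.07 and 0.21. Those of the 8 stem cell markers were 0.02, -0.07 and -0.06. The secretory lists were thus highest in S3. The part of cell composition in the lower ribosomal protein level of S3 was not tested, and in bulk RNA, fewer cells of a type and less RNA per cell cannot be told apart.

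Among other translation genes, 19 of 20 listed mRNAs known for a TOP motif outside the ribosome (elongation and initiation factors and others, such as Eef1a1, Eef2 and Tpt1) had median deviations of -0.01, 0.03 and -0.03, with 11 of 19 (57.9%) lowest in S3 and 9 of 19 (47.4%) highest in S2. Eef1a1, the elongation factor that delivers aminoacyl-tRNA, had 356763, 357251 and 351663 normalized counts and was nearly level. Gas5, a noncoding host of small nucleolar RNAs, had 4343, 4034 and 3508 and was lowest in S3. The 78 mitochondrial ribosomal protein genes had 0.05, -0.00 and -0.04, with 46 of 78 (59.0%) lowest in S3. Both shares in S3 stand beside the 31.1% of all expressed genes. The 16 genes of mTORC1 and of the control of TOP mRNAs had 0.00, -0.02 and 0.01. Within this list, Larp1, which binds TOP mRNAs, had 10035 ± 198 normalized counts and Mtor 2080 ± 130.4. The 14 chaperones and importers of ribosomal proteins tested had 0.07, 0.01 and -0.04.

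Several members are known for roles beyond their place in the ribosome. Rps6, the substrate of the S6 kinases downstream of mTORC1, had 35038, 37410 and 35850 normalized counts. Rps19 and Rps14, whose loss underlies Diamond-Blackfan anemia and the anemia of the 5q- syndrome in humans, had 16936, 16842 and 15020, and 23100, 23274 and 22349. Rps19 was lower in S3, and Rps14 was nearly level. Rpl38, which was reported to be needed for translation of Hox mRNAs, had 7113, 7315 and 6098, and Rps25, reported to be absent from some ribosomes, had 12901, 13992 and 12203. Both were lowest in S3. The X-linked Rps4x had 40708, 42210 and 41040, so that S1 did not stand apart in it.

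Some ribosomal proteins are made from fusions with ubiquitin or a ubiquitin-like protein. Rps27a, the fusion within the symbol pattern, had 18454, 19107 and 18010 normalized counts. Outside the pattern, Fau, which yields a small subunit protein, had 4205, 4320 and 3945. Per coding kilobase Rps27a was at 39581 and Fau at 10418, although copies of Fau were not sought. Rack1, a scaffold on the small subunit, had 48906, 48212 and 46514, or 50344 per coding kilobase.

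The paralogs were below their parent genes in each library. Rpl36al reached 84.7 ± 2.14% of the normalized counts of Rpl36a (SD, n = 3), with 6273, 6205 and 5589 against 7198, 7436 and 6698. This share would be lower against Rpl36a and its copies together, which had 8949, 9864 and 8701. Rpl22l1, which is known to be repressed by Rpl22 protein, reached 42.2 ± 3.29% of Rpl22, with 3572, 3588 and 2952 against 7794, 8687 and 7485. Rps27l, a p53 target, reached 22.5 ± 1.46% of Rps27, with 2471, 2415 and 2211 against 10386, 11554 and 9750. All 3 paralogs and their parents were lowest in S3.

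Rpl7l1, which acts in the assembly of the large subunit, reached 8.59 ± 0.803% of Rpl7, with 4029, 3660 and 3504 against 42386, 44397 and 43721. Rps27rt, an intronless relative of Rps27, stood at 51.1, 36.3 and 92.1 normalized counts, 0.584 ± 0.325% of Rps27, and was the only paralog here highest in S3 with a mean of at least 10. Rpl39l, known from the testis, had no read in S1 and S2, which allows up to 2.84 and 3.21 normalized counts, and 1 read in S3. Rpl3l and Rpl10l, known from muscle and testis, were not analysed here, and Rps4l, annotated as a transcribed pseudogene, lay outside the rule.

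**Figure D4:**
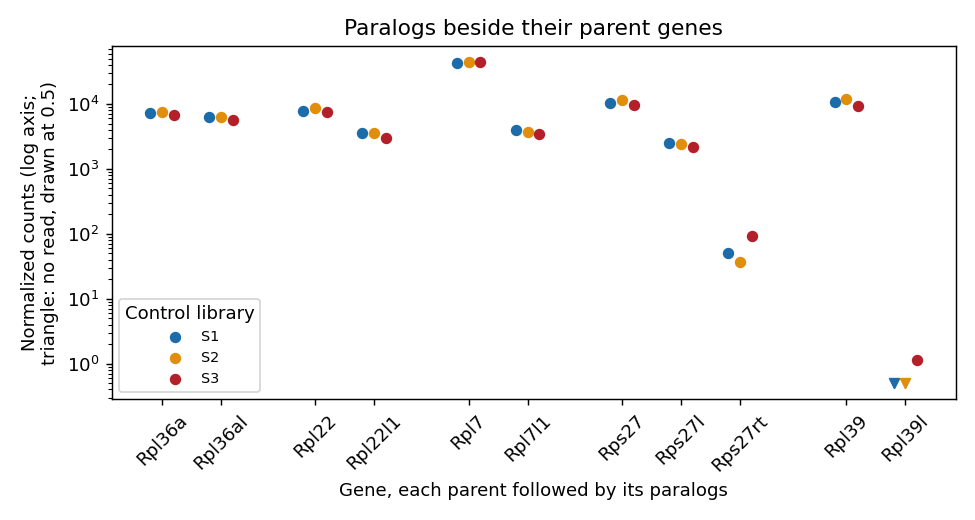
Normalized counts (log axis) of the 6 paralogs, each beside its parent gene, with a point for each control library; triangles mark libraries without a read. Rpl36al comes closest to its parent at 84.7% (copies of the parent not added), and Rpl39l has 1 read in 1 library.

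Start sites were examined for the TOP motif, because the members are the best known class of TOP mRNAs. RefSeq promoter sequences of GRCm38.p6, from 250 bases before to 50 bases after the annotated start, matched 63 of the 83 members by symbol. A C at the annotated start followed by C or T, at least 5 bases in all, was found in 14 of 63 members (22.2%) and in 813 of 27025 genes (3.01%). Runs of at least 8 bases were found in 9 members (14.3%), as in 0.936% of genes. These 9 are shown on the transcribed strand from 15 bases before the start, with the pyrimidine run that begins at the start in capitals.

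Rps6 (chr4:86857353-86857382, minus strand): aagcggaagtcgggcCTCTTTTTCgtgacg
Rps18 (chr17:33955651-33955680, minus strand): tacgtcacttccgctCTCTCTTCCacagga
Rps10 (chr17:27635230-27635259, minus strand): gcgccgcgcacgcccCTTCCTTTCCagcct
Rpl28 (chr7:4792950-4792979, plus strand): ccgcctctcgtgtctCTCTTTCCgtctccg
Rpl15 (chr14:18270972-18271001, minus strand): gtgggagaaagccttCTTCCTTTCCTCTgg
Rps15a (chr7:118116133-118116162, minus strand): ctctctttctgccatCTTCCCTCgccggtg
Rpl35a (chr16:33056467-33056496, plus strand): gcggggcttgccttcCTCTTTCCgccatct
Rpl35 (chr2:39005117-39005146, minus strand): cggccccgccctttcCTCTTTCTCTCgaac
Rpl38 (chr11:114668565-114668594, plus strand): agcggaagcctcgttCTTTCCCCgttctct

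The 14 members with such a start had a median of 15794 normalized counts and the 49 without it 16143. An annotated start that lies some bases away from the used start would hide the motif, and start sites were not measured here. The 300-base windows were searched on both strands, and a gene was counted if any of its windows held the motif. CGGAAG, the core of binding sites of ETS factors, was found in 43 of 63 members (68.3%) and in 18.8% of all genes. AAGATGGC, part of the site of YY1, which can share the letters AAG with the former, was found in 6 members (9.52%) and in 3.19% of genes. CCAAT, the box bound by NF-Y, was found in 20 members (31.7%) and in 41.1% of genes. These matches are a description of sequence and not of binding.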

How the data were processed

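Polyadenylated RNA of mouse small intestinal organoids was sequenced (TruSeq Stranded mRNA, 3 control and 3 C/EBPα KO libraries). The authors mapped reads with Bowtie 2 and quantified genes with RSEM, which divides reads that fit several genes between them. Their processing notes name Bowtie2 2.2.9, RSEM 1.2.31, DESeq2 1.14.1 and build mm9. The annotation release is not given in the sources used here. The labels give 400 nM 4-OHT, and the dose in the study's text differs.

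The values that the authors deposited are a normalized signal (normalized counts) with 1 row per gene. In S1, S2 and S3, 1 read is worth 0.946, 1.07 and 1.15 normalized counts, and 100% of values lay within 0.01 reads of a whole number of reads. Of 21256 rows, 1 repeated an identifier and was left out, and 21213 of 21255 identifiers matched a symbol. In total, 3 value columns whose names match no sample label were not used. The planned comparison of C/EBPα KO with control was therefore not run, and no test was made. A count test on recovered reads was not run either, since 1 group remained.

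Biotypes, chromosomes, coding lengths and transcripts came from GENCODE M21 (GRCm38), because RefSeq protein lengths, planned at first, were not used here. Copies were found with blastn 2.17.0 on the plus strand (at least 90% identity, 80% of the coding length). Deviations used genes with a mean of at least 10 and a pseudocount of 1 on the log2 scale. Errors are SDs over the 3 libraries. Values were named for the 5 highest and 5 lowest genes per subunit per coding length, the stalk genes, paralogs, genes with other known roles, and the 5 members with the largest CV above a mean of 100. A few genes are counted in the summaries but not reported here by name. The rule for the members uses no measured value, but the gene group and the lists were chosen with earlier results of these data known. The deviation script was tested on simulated data. Calculations used Python 3.11.15, pandas 2.3.3, numpy 2.4.6 and scipy 1.17.1. Alternatives were scalings to the same total, to the same upper quartile and to the total without the members, pseudocounts of 0.1 and 5, leaving out each library, other denominators and length corrections, and, chosen after seeing the data, the treatment of copies and a comparison with other short genes.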

Additional observations from a re-analysis of the deposited data

How the results depend on the processing

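The median deviation of the members stayed between -0.12 and -0.07 in S3 and between 0.03 and 0.12 in S2 under every alternative run, including leaving out each library. In S1 it lay between -0.03 and 0.08 and was negative without S3 and relative to other short genes (-0.01), so no direction is given for S1. Scaling moved the median of all genes by less than 0.01 on the log2 scale. The share of normalized counts on the members was 5.16% without the 10 genes with the most normalized counts and 5.43% with copies added. The ratio of the 90th to the 10th percentile per coding kilobase, 2.86, was 5.32 without length correction, 3.12 with 200 bases added to each coding length, and, by alternatives chosen after seeing the data, 1.92 with copies added and 2.13 in the 52 genes whose copies stayed below 1000 normalized counts. Adding copies moved the level of 24 of 83 members beyond their SD and of 11 by over 1.5 times. Rescaling moved none beyond its SD. Depth limits only Rpl39l and Rps27rt. The alternatives planned for the comparison of C/EBPα KO with control were not run. No paired analysis was possible because 1 group was analysed.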
